A study of Homo sapiens with 4 samples.

Results

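The genes described here encode the nuclear subunits of respiratory complexes III and IV and of ATP synthase, in TU-177 cells with and without knockdown of SKA3. Members were the protein-coding nuclear genes of the deposited table whose old or current symbol begins with UQCR, COX4I, COX5, COX6, COX7, COX8 or ATP5, together with CYC1. Pseudogenes were left out. This gave 49 of the 28729 genes in the table, 10 of complex III, 17 of complex IV, 18 of ATP synthase and 4 further genes that carry or once carried an ATP5 name without being a subunit.

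TU-177 is an established human laryngeal squamous cell carcinoma line. By the labels, the 4 RNA-seq libraries comprised 2 of cells transduced with a lentivirus carrying a negative control shRNA (sh_NC) and 2 with a lentivirus carrying an shRNA against SKA3 (sh_SKA3). SKA3 is a component of the spindle and kinetochore associated complex, which holds kinetochores to spindle microtubules in mitosis. All cells had passed puromycin selection begun 48 h after transduction, so the controls carry the vector and the selection too. The study's methods also describe sgRNAs for stable knockdown cells and siRNAs, without saying which were sequenced. The sequence of the shRNA and the number of constructs are not given in the labels. They also do not state whether replicates 1 and 2 were separate transductions or cultures, and p-values then measure only the spread between these libraries, which may be technical.

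Complex III passes electrons from ubiquinol to cytochrome c, and complex IV passes them from cytochrome c to oxygen. Both pump protons across the inner mitochondrial membrane, and ATP synthase lets the protons return to drive ATP formation. The catalytic core of complex IV and a few subunits of the other complexes are encoded by mitochondrial DNA, whereas all other subunits are encoded in the nucleus and imported.

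The values are FPKM, fragments scaled by exon length and by library size. The length counts all annotated exons of a gene, for example 9715 bases for UQCRB and 1408 for UQCRH. Levels therefore compare only roughly between genes, and better between libraries within a gene. Library sizes behind the FPKM values ranged from 9015056 to 11966130. SKA3 itself measured 9.40 and 9.64 FPKM in sh_NC and 3.77 and 4.12 in sh_SKA3, and it fell by 1.09 on the log2 scale (SE 0.07, adjusted p = 0.00806). Adjusted p-values are from limma on log2(FPKM + 1) over the 12645 genes whose mean FPKM reached 1, with Benjamini-Hochberg adjustment and a threshold of 0.05, and log2 fold changes are sh_SKA3 minus sh_NC on that scale. An exact permutation test of 2 libraries against 2 cannot go below p = 0.333 and was not used. Of 10 squamous epithelial markers, KRT17 and SFN were well expressed, KRT16 and EPCAM were low, KRT5, KRT14, KRT6A, TP63 and PKP1 were under 1 FPKM in every library and DSG3 was not analysed here. The 4 tested squamous markers summed to 195 and 211 FPKM in sh_NC and to 168 and 191 in sh_SKA3. Of 6 fibroblast markers 3 were tested, and these summed to 14.5 and 14.8 FPKM in sh_NC and to 8.39 and 9.14 in sh_SKA3. DCN carried the fall in that sum, at 8.395 and 8.36 against 2.48 and 2.35 FPKM. COL1A1 had a log2 fold change of -0.32, and PDGFRB lay the other way at 2.88 and 2.46 against 3.19 and 4.13 FPKM (adjusted p-values 0.140 and 0.165). KRT17 (log2 fold change -0.53, adjusted p = 0.0396) and the proteoglycan gene DCN (log2 fold change -1.46, adjusted p = 0.00650) were lower in sh_SKA3, and the part of these shifts in the results below was not tested. Of the leukocyte and endothelial markers, PTPRC, CD68, LYZ, CDH5 and VWF stayed under 0.1 FPKM, LYZ was at 0 throughout, and CD3E, PECAM1 and KDR were not analysed here. In bulk RNA, fewer cells with a transcript and less transcript per cell cannot be told apart.

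Transcripts of the nuclear subunits were mostly lower in sh_SKA3 in all 3 complexes, with the lowest median in complex IV. Of the 38 subunit genes tested, 37 had a negative log2 fold change, against 48.4% of all genes tested. Both sh_SKA3 libraries lay below both sh_NC libraries for 30 of the 38, or 78.9%, whereas this held for 29.2% of all genes tested, and no subunit showed the opposite order, against 32.3%. The changes were small. The median log2 fold change of the 38 was -0.17 (range -0.64 to 0.00) beside 0.01 for all genes tested. COX5B, UQCR10, COX7C, ATP5F1A and COX4I1 passed the threshold as lower, which is 13.2% of the subunits tested against a background of 6.11%, and none passed as higher, against 6.16%. At an unadjusted p under 0.05, 19 of the 38 were lower, against 15.1% of all genes tested, and 0 were higher, against 16.2%.

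**Figure D1:**
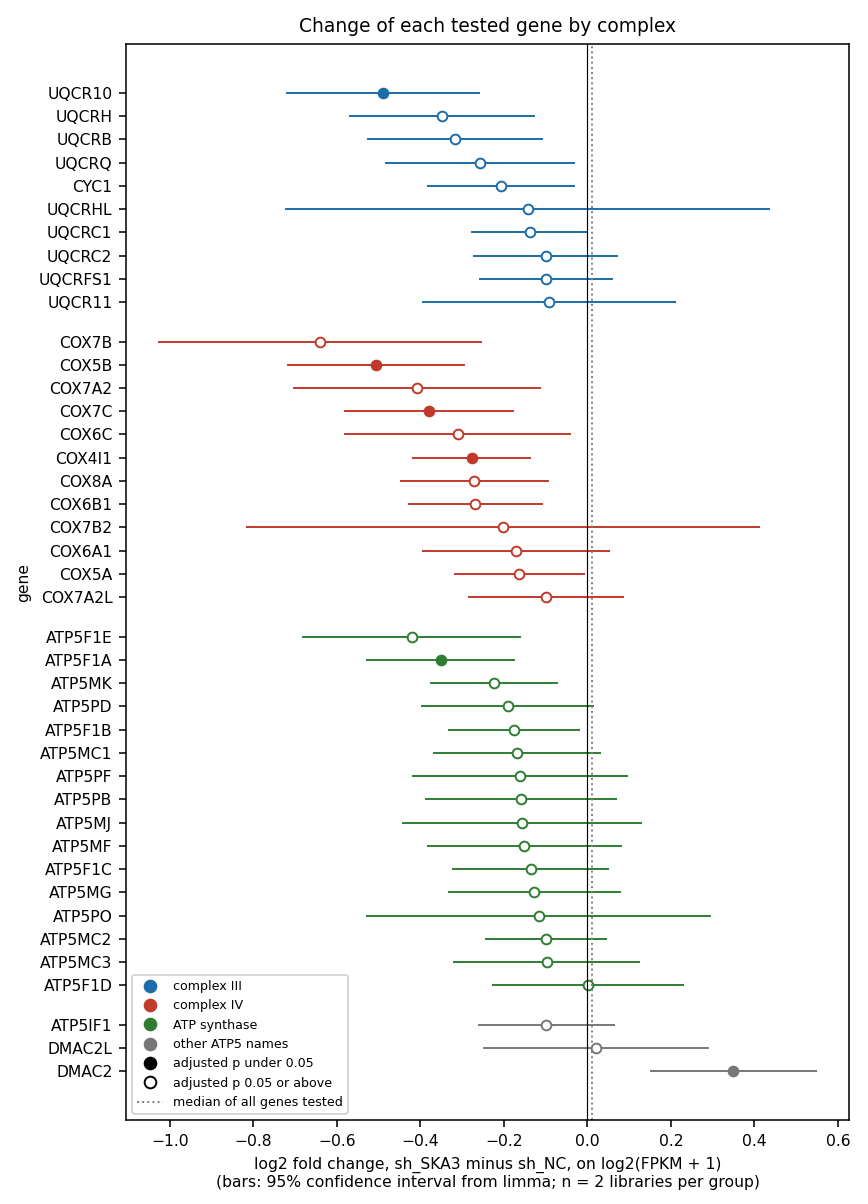
Log2 fold change of each tested gene (horizontal axis, sh_SKA3 minus sh_NC on log2(FPKM + 1)) with its 95% confidence interval from limma, n = 2 libraries per group, with filled points for an adjusted p under 0.05 and a dotted line at the median of all genes tested. All points of complexes III and IV lie left of 0, ATP5F1D alone among the ATP synthase subunits lies at 0.00, and DMAC2, which is no subunit, lies furthest right at 0.35.

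The median differed by complex. It was -0.17 over 10 genes of complex III, -0.27 over 12 genes of complex IV and -0.16 over 16 genes of ATP synthase. These differences between complexes were not tested. Measured against each gene's sh_NC mean, the median deviation in complex IV was -0.24 in sh_SKA3 replicate 1 and -0.30 in replicate 2, while the sh_NC libraries lay at 0.05 and -0.05. In complex III the sh_SKA3 medians were -0.17 and -0.26, and in ATP synthase -0.11 and -0.19, with the sh_NC libraries again at 0.05 and -0.05 in each. In each complex sh_SKA3 replicate 2 was the lowest library and sh_NC replicate 1 the highest, and the gap between the groups was wider than the gap within either group except in ATP synthase, where sh_SKA3 replicate 1 lay closer to sh_NC replicate 2 than to its own replicate.

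**Figure D2:**
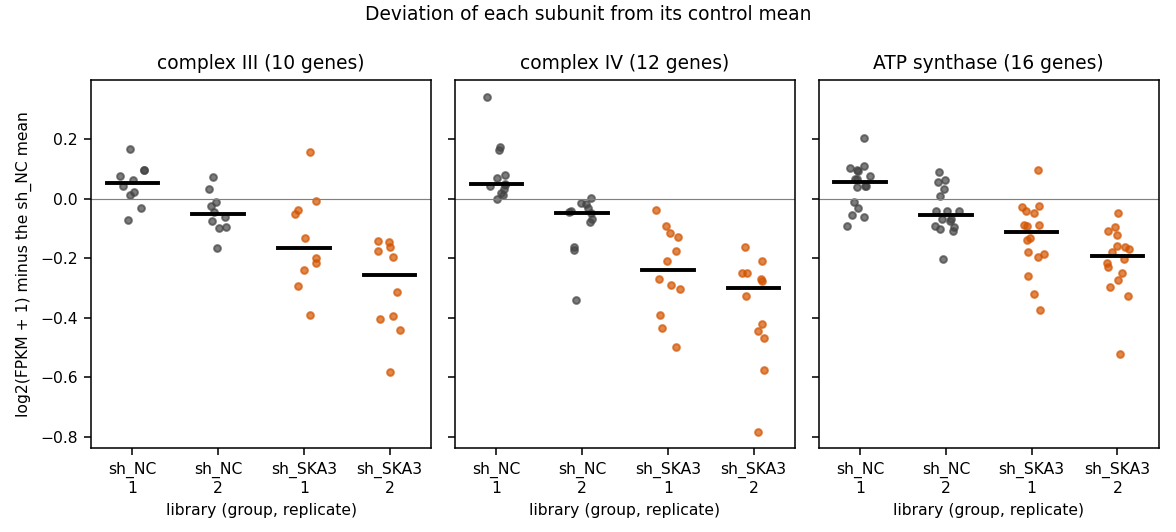
Deviation of each tested subunit from its own sh_NC mean on the log2(FPKM + 1) scale (vertical axis) in each library (horizontal axis), 1 point per gene, with black bars at the median over the genes. The medians of the sh_SKA3 libraries lie between -0.11 and -0.30, below those of both sh_NC libraries at 0.05 and -0.05 in each of the 3 complexes.

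Nuclear respiratory genes are known to share sites for NRF1, for the ETS family factor GABP and for YY1. A part of such sites in the differences between the groups was not tested. The 4 called subunit genes that have a single listed start were chosen by their lower call, so their common direction follows from that choice. The start regions of these 4 genes are given. Each runs from 150 bases before the transcription start to 30 bases from it, in the direction of transcription, from RefSeq (GRCh38.p14), with capitals marking a match on either strand to CCGGAAG (ETS) or to GCGCA and GCGC parted by any 1 base (NRF1).
COX5B (GRCh38.p14 chr2:97645912-97646091, plus strand): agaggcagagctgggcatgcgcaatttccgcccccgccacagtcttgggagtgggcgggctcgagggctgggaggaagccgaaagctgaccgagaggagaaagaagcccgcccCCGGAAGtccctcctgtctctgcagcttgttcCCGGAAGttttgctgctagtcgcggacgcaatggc
UQCR10 (GRCh38.p14 chr22:29767219-29767398, plus strand): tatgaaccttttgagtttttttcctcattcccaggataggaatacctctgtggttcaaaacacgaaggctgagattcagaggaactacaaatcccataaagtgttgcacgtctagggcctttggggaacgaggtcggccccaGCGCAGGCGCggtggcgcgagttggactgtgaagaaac
COX4I1 (GRCh38.p14 chr16:85799545-85799724, plus strand): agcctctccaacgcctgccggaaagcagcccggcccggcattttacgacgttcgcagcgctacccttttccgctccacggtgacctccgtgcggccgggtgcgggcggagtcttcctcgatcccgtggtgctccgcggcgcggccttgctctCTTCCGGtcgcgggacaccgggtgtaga
COX7C (GRCh38.p14 chr5:86617791-86617970, plus strand): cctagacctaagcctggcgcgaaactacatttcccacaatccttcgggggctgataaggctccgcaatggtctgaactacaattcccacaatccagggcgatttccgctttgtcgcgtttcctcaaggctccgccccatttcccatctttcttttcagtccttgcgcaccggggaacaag

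In COX5B the ETS letters began at -37 and at -5, counted from the first transcribed base, and in COX4I1 they began at base 3 on the opposite strand. UQCR10 held the NRF1 letters at -8, and COX7C held neither. ATP5F1A has 2 listed starts, of which 1 holds the ETS letters at -48. Over windows of 300 bases, available for 36 of the 49 members, the members had 42 promoters, of which 15 (35.7%) held the ETS letters, beside 10.3% of all 35116 RefSeq promoters. The NRF1 letters stood in 9 of the 42 (21.4%) beside 5.78% of all promoters, and AAGATGGC, the YY1 letters, in 5 (11.9%) beside 2.89%. No match overlapped a match to another of these motifs. The background of all promoters was not matched to the members for expression level or base content. Matches are letters in a window and say nothing of binding.

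Of the 10 complex III genes, 1 (10%) passed the threshold as lower, against 6.11% of all genes tested. UQCR10, a small membrane subunit, measured 42.3 and 38.8 FPKM in sh_NC and 30.6 and 26.7 in sh_SKA3. It fell by 0.49 on the log2 scale (SE 0.09, adjusted p = 0.0344), with no overlap between the groups. UQCRH, the hinge protein between cytochrome c1 and cytochrome c, had the highest FPKM of the complex's nuclear genes. It measured 268 and 234 FPKM in sh_NC against 204 and 189 in sh_SKA3. UQCRB, named for its part in ubiquinone binding, measured 16.2 and 15.2 against 13.2 and 11.7 FPKM. Both separated the groups without passing the threshold, with log2 fold changes of -0.35 (SE 0.09, adjusted p = 0.0622) and -0.32 (SE 0.08, adjusted p = 0.0682). UQCRQ, another small subunit, measured 45.5 and 39.7 FPKM in sh_NC against 36.8 and 34.0 in sh_SKA3 (log2 fold change -0.26, adjusted p = 0.124). UQCR11, the smallest subunit, was low at 2.92 and 2.54 against 2.71 and 2.29 FPKM, its groups overlapped, and its exons overlap another gene on the same strand over 10.9% of their length. The 5 small subunits had a median log2 fold change of -0.32, from -0.49 for UQCR10 to -0.09 for UQCR11.

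None of the catalytic and core proteins of complex III passed the threshold. CYC1, cytochrome c1, measured 109.9 and 122 FPKM in sh_NC against 99.4 and 101 in sh_SKA3 (log2 fold change -0.21, SE 0.07, adjusted p = 0.116). UQCRFS1, the Rieske iron-sulfur protein, measured 61.8 and 59.8 against 58.6 and 54.9 FPKM. The core proteins UQCRC1 and UQCRC2 measured 120.0 and 125 against 112 and 111 FPKM and 41.9 and 41.2 against 40.4 and 37.0 FPKM. All 4 had both sh_SKA3 libraries below both sh_NC libraries, an order that 29.2% of all genes tested showed. Their log2 fold changes lay between -0.21 and -0.10, within the range of the small subunits. UQCRHL, a nearly identical copy of UQCRH, is read at 7.29 and 5.59 against 7.24 and 4.44 FPKM. Reads of the pair may be split between them, so its value is uncertain.

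Complex IV held 3 of the 5 subunits past the threshold, 25% of its 12 tested genes, against 6.11% of all genes tested. COX5B, which carries the zinc ion of the complex, measured 188 and 168 FPKM in sh_NC and 131 and 119 in sh_SKA3. It fell by 0.51 on the log2 scale (SE 0.08, adjusted p = 0.0271), so that the sh_SKA3 mean was 70.2% of the sh_NC mean. COX7C, a small membrane subunit, measured 207 and 196 against 165 and 145 FPKM and fell by 0.38 (SE 0.08, adjusted p = 0.0432). COX4I1, the largest nuclear subunit and the site of allosteric inhibition by ATP, measured 57.1 and 57.2 against 46.1 and 47.8 FPKM and fell by 0.28 (SE 0.05, adjusted p = 0.0393). The groups did not overlap for any of the 3, and the sh_NC libraries of COX4I1 were nearly equal.

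The greatest difference in complex IV missed the threshold, and its libraries spread more within each group. COX7B, a small membrane subunit encoded on the X chromosome, measured 68.7 and 53.8 FPKM in sh_NC and 42.8 and 34.9 in sh_SKA3, a log2 fold change of -0.64 (95% interval -1.03 to -0.26, adjusted p = 0.0560). COX7A2, at 97.4 and 77.5 against 65.9 and 64.5 FPKM, likewise differed between its sh_NC libraries (log2 fold change -0.41, SE 0.12, adjusted p = 0.0833). COX6C, COX8A and COX6B1 had log2 fold changes of -0.31, -0.27 and -0.27 with adjusted p-values of 0.122, 0.0661 and 0.0539. COX6B1 measured 191 and 187 FPKM in sh_NC against 163 and 151 in sh_SKA3. COX8A measured 58.7 and 53.2 against 46.1 and 46.2 FPKM, and it shares 34.5% of its exon length with another gene on the same strand. COX6A1 and COX5A, the latter beside COX5B in the matrix part of the complex, had log2 fold changes of -0.17 and -0.16. COX5A measured 98.0 and 95.4 FPKM in sh_NC against 89.2 and 83.3 in sh_SKA3. COX6A1 was the lowest of the widely expressed forms, at 7.90 and 7.35 against 7.09 and 6.25 FPKM, and 13.0% of its exon length is shared with another gene on the same strand. All 10 widely expressed subunits had both sh_SKA3 libraries below both sh_NC libraries, against 29.2% of all genes tested. Their median log2 fold change was -0.29.

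**Figure D3:**
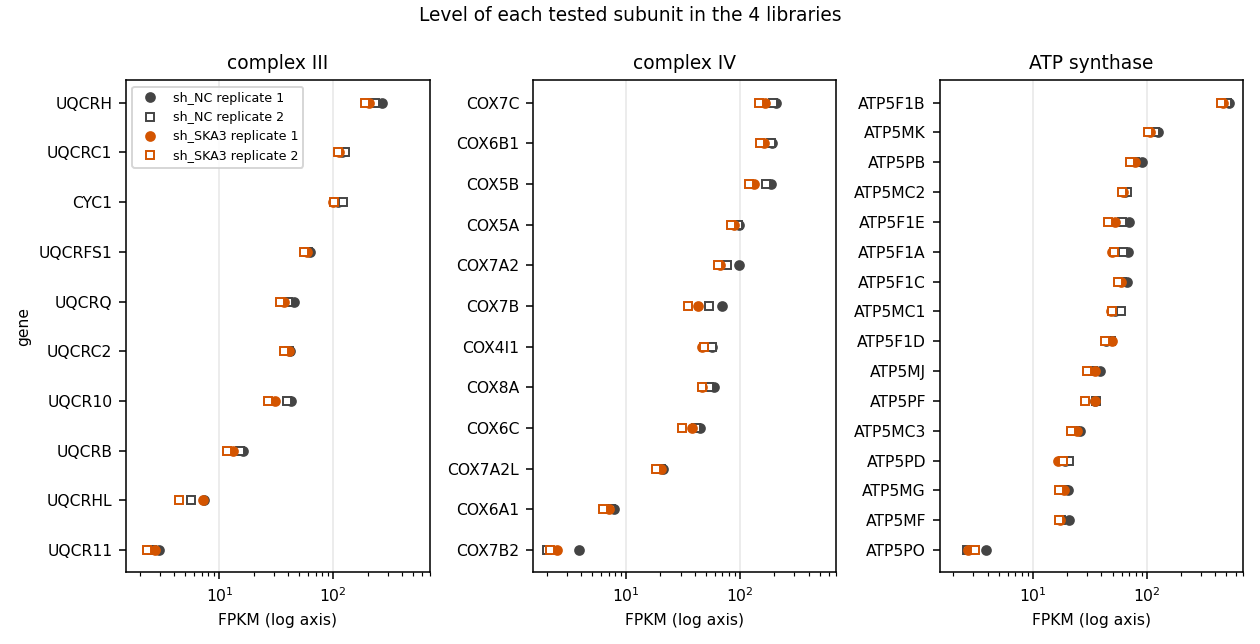
FPKM of each tested subunit (horizontal log axis) in the 4 libraries, with grey symbols for sh_NC and orange for sh_SKA3, circles for replicate 1 and squares for replicate 2. ATP5F1B is the highest gene, at 443 to 530.3 FPKM, and the orange symbols lie left of the grey ones for COX7B, COX5B, COX7C, UQCR10 and ATP5F1A.

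The isoform pairs of complex IV separated by level. COX4I2, known from lung, COX6A2, known from heart and skeletal muscle, and COX8C, known from testis, were at 0 in every library, where 3 reads would have given 0.362 to 0.624 FPKM. COX7A1, the heart and muscle partner of COX7A2, had 2 to 4 reads per library, and COX6B2, the testis partner of COX6B1, had 2 to 10. COX7B2, the testis partner of COX7B, was the sole restricted form that could be tested, at 3.82 and 2.002 FPKM in sh_NC and 2.48 and 2.14 in sh_SKA3. It rested on 15 to 38 reads per library and its groups overlapped (log2 fold change -0.20, 95% interval -0.82 to 0.41, adjusted p = 0.614). COX7A2L, a relative of COX7A2 that joins complexes III and IV into supercomplexes, differed little at 21.3 and 20.3 against 20.2 and 18.5 FPKM (log2 fold change -0.10, adjusted p = 0.401). Each restricted form thus stayed far below its widely expressed partner.

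In ATP synthase 1 of the 16 genes tested was called lower (6.25%), near the background of 6.11%. The F1 head and central stalk held both the called gene and the flattest one. ATP5F1A, the alpha subunit, measured 68.0 and 61.9 FPKM in sh_NC and 49.8 and 51.5 in sh_SKA3, without overlap. It fell by 0.35 on the log2 scale (SE 0.07, adjusted p = 0.0384), and 7 pseudogenes carry its name. ATP5F1B, the catalytic beta subunit, had the highest FPKM of all members, at rank 51 of the table. It measured 530.3 and 501 against 470.2 and 443 FPKM (log2 fold change -0.18, SE 0.06, adjusted p = 0.129). The alpha and beta subunits stand in equal number in the enzyme. Exon lengths in GENCODE 29 are 10908 bases for ATP5F1A and 2322 for ATP5F1B. The lengths that gave whole reads were instead 7012 and 2268 bases. These lengths differ between the genes, so FPKM of ATP5F1A and ATP5F1B do not compare transcript numbers. ATP5F1E, the epsilon subunit of the stalk, measured 69.8 and 61.0 against 52.0 and 45.2 FPKM (log2 fold change -0.42, SE 0.10, adjusted p = 0.0588). It was the largest difference of the complex and did not pass the threshold, and exons of TUBB1 lie opposite 23.2% of its exon length. ATP5F1C, the gamma subunit, had a log2 fold change of -0.14. ATP5F1D, the delta subunit, measured 44.1 and 48.2 against 49.4 and 43.2 FPKM, with a log2 fold change of 0.00 (95% interval -0.23 to 0.23).

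None of the members in the membrane part and the peripheral stalk of ATP synthase passed the threshold. ATP5MC1, ATP5MC2 and ATP5MC3 encode the same mature c subunit of the proton-driven ring. ATP5MC1 measured 52.0 and 59.2 FPKM in sh_NC and 48.9 and 49.6 in sh_SKA3, and ATP5MC2 measured 64.2 and 67.0 against 61.6 and 60.7. ATP5MC3 had the lowest FPKM of the trio at 26.0 and 23.3 against 24.2 and 21.8, with overlap, and the longest exon length, at 6780 bases. Their log2 fold changes of -0.17, -0.10 and -0.10 all carried intervals that reach above 0, so no change was detectable in any of the trio, and differences among them were not tested. The peripheral stalk genes ATP5PB, ATP5PD, ATP5PF and ATP5PO, which hold the head against rotation, had a median log2 fold change of -0.16. The groups overlapped for ATP5PB and ATP5PO, and 19.6% of the exon length of ATP5PO is shared with another gene on the same strand. Among the small membrane subunits ATP5MK, which takes part in dimer formation, differed most, at 125 and 118 against 106 and 102 FPKM (log2 fold change -0.22, SE 0.06, adjusted p = 0.0719). ATP5MF, ATP5MG and ATP5MJ had log2 fold changes between -0.16 and -0.13. ATP5ME, the e subunit, had 3 to 10 reads per library and was not tested, as was ATP5MGL, a copy of ATP5MG with 0 to 2 reads. Exons of MYL5 lie opposite 61.6% of the exon length of ATP5ME and strand handling is not known, so its level is uncertain.

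Of the 4 genes with ATP5 names that are no subunits, 3 were tested. Of these, 1 passed the threshold as higher, against 6.16% of all genes tested. DMAC2, formerly ATP5SL and a factor in complex I assembly, measured 8.47 and 9.32 FPKM in sh_NC and 11.2 and 12.0 in sh_SKA3, without overlap. It rose by 0.35 on the log2 scale (SE 0.08, adjusted p = 0.0499) and lost its call under median-of-ratios scaling (adjusted p = 0.0570). DMAC2L, formerly ATP5S, measured 2.42 and 2.39 against 2.60 and 2.31 FPKM, with overlap. ATP5IF1, the inhibitor that blocks ATP hydrolysis by the synthase, measured 84.7 and 78.9 against 77.9 and 74.7 FPKM (log2 fold change -0.10, adjusted p = 0.347). ATP5MF-PTCD1, a readthrough transcript, had 1 read in all.

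Related mitochondrial genes were read beside the subunits, against a background of 6.11% of all genes called lower and 6.16% higher, which is under 2 genes in either direction for each list. The mitochondrially encoded subunits of the 3 complexes had no member past the threshold among 6, and their median log2 fold change was -0.02, from -0.24 for MT-CO3 (adjusted p = 0.185) to 0.04 for MT-CYB. MT-CO3 alone (16.7%) had both sh_SKA3 libraries below both sh_NC libraries, against 29.2% of all genes tested. MT-CO3 and MT-ATP6 passed the threshold under some alternative settings given below. The nuclear subunits of complex IV summed to 4.71% and 4.54% of its mitochondrially encoded subunits in sh_NC and to 3.82% and 3.77% in sh_SKA3. In complex III the same ratio was 28.9% and 29.4% in sh_NC against 23.9% and 23.8% in sh_SKA3. In ATP synthase it was 31.5% and 31.1% against 28.2% and 30.6%, so all 3 ratios were lower in both sh_SKA3 libraries, and that of ATP synthase by the least.

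NDUFA4, once assigned to complex I and now counted with complex IV, measured 63.6 and 60.8 FPKM in sh_NC and 51.1 and 46.6 in sh_SKA3 and fell by 0.34 on the log2 scale (SE 0.07, adjusted p = 0.0408). CYCS, cytochrome c itself, which shuttles between the complexes, averaged 105 FPKM in sh_NC and 87.9 in sh_SKA3, without overlap (log2 fold change -0.26, adjusted p = 0.0984). Complex II, made of nuclear subunits alone, had no member past the threshold among 4 and a median of 0.04. The assembly factors had none past it among 8 tested for complex III (median -0.10), 25 for complex IV (median -0.03) and 4 for ATP synthase (median -0.14). Of 13 regulators of mitochondrial biogenesis, 1 (7.69%) was called lower, near the background of 6.11%, and their median was -0.06. That gene was PPARGC1A, the PGC-1 alpha coactivator, at 2.84 and 2.64 FPKM in sh_NC and 0.98 and 0.81 in sh_SKA3, and it fell by 0.98 on the log2 scale (SE 0.13, adjusted p = 0.0189). Transcripts of NRF1, GABPA and YY1 had log2 fold changes of 0.03, -0.10 and -0.09 with adjusted p-values of 0.793, 0.407 and 0.364.

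**Figure D4:**
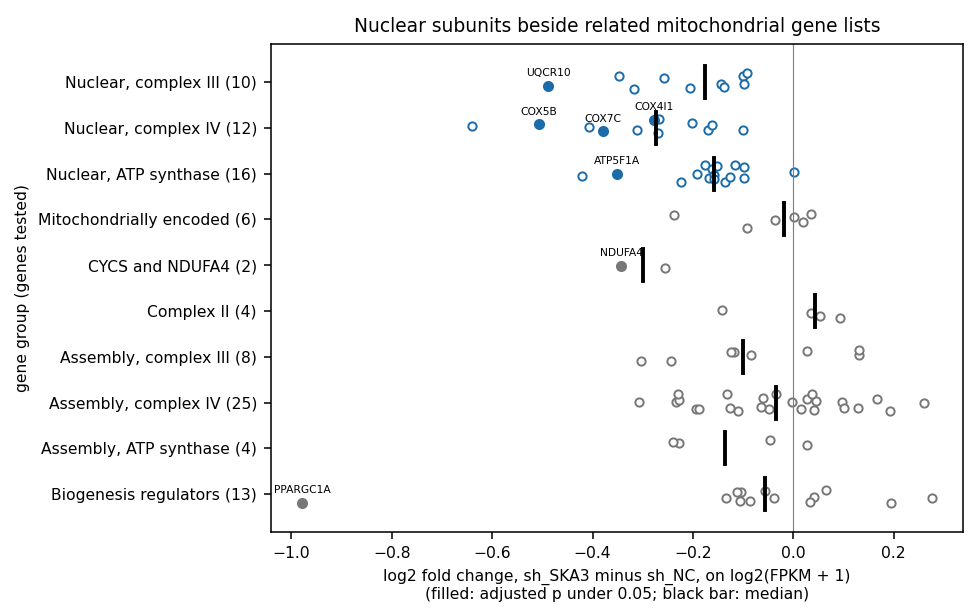
Log2 fold change (horizontal axis, sh_SKA3 minus sh_NC on log2(FPKM + 1)) of each tested gene in the nuclear subunit groups and the related lists, with the number tested in parentheses, filled points for an adjusted p under 0.05 and black bars at the medians. The nuclear groups have medians of -0.17, -0.27 and -0.16, the mitochondrially encoded subunits -0.02 and complex II 0.04, and PPARGC1A stands apart at -0.98.

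None of the 6 members called, NDUFA4 or PPARGC1A kept an adjusted p under 0.05 when any 1 of the 4 libraries was left out. Over all genes tested, the calls without sh_NC replicate 1 or sh_NC replicate 2 were 0, without sh_SKA3 replicate 1 they were 53 lower and 13 higher, and without sh_SKA3 replicate 2 they were 135 lower and 46 higher. With all 4 libraries, COX5B, UQCR10, COX4I1 and ATP5F1A were called under 8 of 10 alternative settings, COX7C under 7 and DMAC2 under 6. The number of members called moved with the method. A mean FPKM of at least 5 gave 13 lower members, against 12.1% of all genes lower and 13.6% higher there, and limma voom on rebuilt reads gave 16, against 12.1% lower and 13.5% higher. With the replicate number as a block, which the labels do not tie to a shared culture, 13 members were lower and 1 higher, against 7.63% and 7.92%. Without a filter on low values, or without a trend in eBayes, 0 members passed. Whole reads rebuilt from the FPKM steps gave 15 to 14392 reads per library for the members tested. Named pseudogenes exist for 24 of the 49 members, and 12 share exon sequence with another gene on the same strand, so that their reads may be divided between loci.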

How the data were processed

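RNA of 2 sh_NC and 2 sh_SKA3 TU-177 samples was isolated with Trizol for Illumina sequencing. What the authors deposited are FPKM values by Ensembl identifier, already divided by gene length and library size. The submitters' processing notes name hg19, Bowtie2 2.2.8, HISAT2, StringTie 1.3.1 and Cuffdiff 2.1.1 without their roles, and strand handling is not given in the sources used here. Groups and replicate numbers came from the sample titles, and no value column was left unused. GENCODE 29 (GRCh38), which may not be the authors' annotation, gave symbols for 27199 of 28729 genes.

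The comparison was made with limma 3.58.1 in R 4.3.3 (lmFit and eBayes with a trend) on log2(FPKM + 1), over the 12645 genes whose mean FPKM reached 1, two-sided, with Benjamini-Hochberg adjustment and a threshold of 0.05. The pseudocount understates changes of low genes. Members were split into subunits by complex and other genes. Genes named with values were those past the threshold, the 3 lowest and 3 highest fold changes of each complex, and isoform groups, and further members are given more briefly. The members and lists were chosen with earlier results of these data known. Reads were rebuilt as whole numbers (tolerance 0.01) from the size of 1 read, with the GENCODE 29 exon length for 36 members and another whole length for 13. For ATP5F1A a multiple of the rebuilt reads is equally possible. Floors of 3 reads cover counting error only.

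Each alternative changed 1 choice: the pseudocount (0.1), the filter (none, or a mean FPKM of 5), the scaling (quantile, or median of ratios), the correction for GC content and length (loess, span 0.5), the eBayes step (robust, or with no trend), a block for the replicate number, voom on the rebuilt reads in place of log2 FPKM, and the omission of each library. The fits were tested on simulated data. Python 3.11.15, numpy 2.4.6, pandas 2.3.3 and matplotlib 3.10.9 were used. The result of 1 leukocyte marker is not reported here.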

Additional observations from a re-analysis of the deposited data

How the results depend on the processing

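The count of members lower in sh_SKA3, 5 as reported, was 0 with no filter and with eBayes without a trend, 13 at a mean FPKM of at least 5, 16 with limma voom on rebuilt reads, 12 with the GC and length correction, and 0 with any 1 library left out. The background of lower calls was 12.1% at a mean FPKM of at least 5 and 12.1% with voom. With the GC and length correction 1180 genes were called lower and 1233 higher of 12645, against 772 and 779 as reported. Without a filter 81 genes were called lower and 48 higher of 26504. The count of members higher, 1 as reported, was 0 with no filter, median-of-ratios scaling, quantile normalization and eBayes without a trend, and 0 with any 1 library left out. The count in related lists, 2 of 62 as reported, was 0 of 67 with no filter, 1 of 48 at a mean FPKM of at least 5, 1 of 62 without a trend and 7 of 62 with voom. MT-CO3 was among those that passed with voom. With quantile normalization 3 of 62 passed, MT-ATP6 among them. Over all genes, 6.11% were lower and 6.16% higher as reported. The shares were 12.1% and 13.6% at a mean FPKM of at least 5 and 12.1% and 13.5% with voom. Without a trend, 381 genes of 12645 were lower and 312 higher. With 1 library left out, the medians ranged from -0.26 to -0.17 in complex III, from -0.35 to -0.24 in complex IV and from -0.21 to -0.11 in ATP synthase, and SKA3 from -1.14 to -1.04 with the call lost without sh_NC replicate 1 (-1.11, adjusted p = 0.0660) and sh_NC replicate 2 (-1.07, adjusted p = 0.0600). Signs turned in UQCRHL (0.022 without sh_NC replicate 1, 0.16 without sh_SKA3 replicate 2, range with 1 library left out -0.44 to 0.16), COX7B2 (0.14 without sh_NC replicate 1, range -0.54 to 0.14), ATP5PO (0.087 without sh_NC replicate 1, range -0.32 to 0.087), DMAC2L (-0.039 without sh_SKA3 replicate 1, range -0.039 to 0.081) and ATP5F1D (-0.012 with median-of-ratios scaling, -0.022 with quantile normalization, -0.028 with the GC and length correction, -0.062 without sh_NC replicate 1, -0.094 without sh_SKA3 replicate 1, range -0.094 to 0.096). The causes were not tested.

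With the replicate number as a block, 13 members were lower and 1 higher, against 7.63% and 7.92% of all genes. Of 62 related genes 4 passed there, MT-CO3 among them. Samples share only a number in the labels, and the deviations of same-numbered libraries correlated at 0.0973 over 12645 genes. The numbers were therefore not taken as pairs. Among the members, however, replicate 1 lay above replicate 2 in both groups. Their median deviations were 0.05 and -0.05 in sh_NC and -0.13 and -0.23 in sh_SKA3. Counting each member once per alternative, direction and side of the threshold were kept in 484 cases, a call was gained in 37, lost in 39 and the sign turned in 10.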
